A study of Mus musculus with 8 samples.

Results

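The genes of the mitochondrial respiratory chain and ATP synthase were described on 8 Illumina mouse beadchips. They were chosen by symbol, as the genes named Nduf with a letter from a to v, Sdha to Sdhd, Uqcr, Cox4 to Cox8 and Atp5. A probe counted as detected above 3 times the noise, a limit of 36.7 intensity units, on at least 2 arrays. 79 genes with 94 probes carried such a symbol, and 68 genes with 76 probes were detected, against 10187 detected genes and unnamed probes in the whole series. Of the 68 genes, 27 of 30 belonged to complex I, 3 of 4 to complex II, 5 of 7 to complex III, 15 of 18 to complex IV and 13 of 14 to complex V. The other 5 of 6 were the Ndufaf genes, which help to assemble complex I. Ndufa4 was counted in complex IV, where its protein is now placed.

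The labels describe bone marrow cells of female 129/BL6 mice, grown for 5 days in medium conditioned by L929 fibroblasts, which yields macrophages. The first pair of groups came from mice with a kinase-inactive knock-in of IRAK4 (IRAK4 KI), given acetylated low-density lipoprotein (acLDL, 100 ug/ml for 24 hours) or left untreated. The second pair came from wild type mice, with acLDL or untreated in the same way. IRAK4 is a kinase below Toll-like and interleukin-1 receptors, and acLDL is a modified lipoprotein that scavenger receptors take up. Each group had 2 arrays. The labels do not say whether the 2 came from different cultures or mice. The p-values thus measure the spread within such pairs, pooled over the 4 groups and moderated across genes, and that spread may be technical. The study asked how acLDL moves gene expression and whether the 2 genotypes differ in it.

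The respiratory chain passes electrons from NADH (complex I) and succinate (complex II) through coenzyme Q to complex III, then through cytochrome c to complex IV, which reduces oxygen. Proton pumping by complexes I, III and IV drives ATP synthase, complex V. The probes described here measure nuclear genes, whose products join core subunits encoded in mitochondrial DNA. In macrophages, inflammatory signals are known to shift energy metabolism between this chain and glycolysis. Several subunits of complex IV exist in alternative isoforms, of which Cox6a2, Cox7a1 and Cox8b are known from heart and skeletal muscle.

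The arrays did not match the labelled cell type, and from these files it cannot be told whether the values come from the labelled macrophages. Groups are named below by their labels, and every genotype and acLDL value rests on those labels. The surfactant genes Sftpc and Sftpd, the club cell gene Scgb1a1 and the alveolar gene Ager, all of lung epithelium, had log2 intensities of 15.19 ± 0.13, 15.23 ± 0.16, 14.93 ± 0.09 and 14.55 ± 0.05 (SD, n = 8). Itgam and Fcgr1, surface markers of macrophages, were above noise on 0 of 8 arrays, while 7 macrophage markers were above noise on all 8. Summed over 8 lung epithelium markers, with Hopx above noise on 0 arrays, intensity lay between 143403 and 159545 on the 8 arrays. The 7 macrophage markers summed to between 23876 and 38735, and such sums are set against each other between arrays, not between lists. Heart and fast skeletal muscle markers were also detected and differed between arrays of the same group. Their sums are given beside the complex IV isoforms below. In such bulk RNA, fewer cells of a type and less RNA per cell cannot be told apart. No probe of the table used here is assigned to Irak4, so the genotype labels were not checked on that gene. The 2 replicates of each group correlated at 0.982 to 0.986 over genes, which are not independent replicates. Replicate 2 of both IRAK4 KI groups and replicate 1 of wild type untreated correlated most with the other array of their group. Each remaining array correlated most with an array of another group. For replicate 2 of wild type acLDL that was replicate 1 of IRAK4 KI untreated.

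Promoters of 4 members are shown because the values below set tissue isoforms of complex IV beside their broadly expressed partners, and because Uqcr11 had one of the smallest p-values between genotypes. The 4 are examples and do not stand for the other members. Ndufa3, with the smallest adjusted p of any member, has a promoter without GCGCATGCG and is not shown. Cox7a2 and Cox8a, partners of Cox7a1 and Cox8b, were not among the genes with that match and are not shown either. The sequences are RefSeq's (GRCm38.p6), each 250 bases before to 50 bases after the gene's start, read on the gene's own strand. Capitals mark matches, on either strand, to GCGCATGCG, the core letters bound by nuclear respiratory factor 1 (Nrf1), in Cox6a1 and Uqcr11. In Cox8b they mark CAGCTG, an E-box of the kind that muscle factors bind, and Cox7a1 holds no CAGCTG. Cox8b lies at chr7:140900397-140900696 on the minus strand, Cox7a1 at chr7:30183921-30184220 on the plus strand, Cox6a1 at chr5:115348909-115349208 on the minus strand and Uqcr11 at chr10:80406772-80407071 on the minus strand.
Cox8b: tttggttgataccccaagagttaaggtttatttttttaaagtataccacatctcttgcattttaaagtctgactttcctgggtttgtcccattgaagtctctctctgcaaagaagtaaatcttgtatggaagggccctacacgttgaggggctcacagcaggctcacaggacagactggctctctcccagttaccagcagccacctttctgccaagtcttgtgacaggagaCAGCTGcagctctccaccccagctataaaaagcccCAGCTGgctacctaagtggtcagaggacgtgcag
Cox7a1: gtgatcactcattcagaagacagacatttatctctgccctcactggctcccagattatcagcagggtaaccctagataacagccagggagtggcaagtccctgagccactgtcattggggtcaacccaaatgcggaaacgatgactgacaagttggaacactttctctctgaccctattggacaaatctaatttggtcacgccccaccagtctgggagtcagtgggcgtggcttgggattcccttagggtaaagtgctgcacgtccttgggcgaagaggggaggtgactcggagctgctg
Cox6a1: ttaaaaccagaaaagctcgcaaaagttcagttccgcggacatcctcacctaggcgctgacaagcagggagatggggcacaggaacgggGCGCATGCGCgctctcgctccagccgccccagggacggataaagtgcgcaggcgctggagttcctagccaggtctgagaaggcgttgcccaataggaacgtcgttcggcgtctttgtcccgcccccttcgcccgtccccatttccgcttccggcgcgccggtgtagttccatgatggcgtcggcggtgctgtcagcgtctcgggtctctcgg
Uqcr11: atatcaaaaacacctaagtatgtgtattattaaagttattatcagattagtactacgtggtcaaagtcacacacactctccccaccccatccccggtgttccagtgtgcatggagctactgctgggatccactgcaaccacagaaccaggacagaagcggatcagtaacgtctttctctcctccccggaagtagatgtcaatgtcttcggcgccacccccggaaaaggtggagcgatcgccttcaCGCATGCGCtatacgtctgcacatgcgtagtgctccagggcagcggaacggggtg

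Promoter sequence was found for 64 of the 79 genes, with 69 promoters in all. GCGCATGCG occurred in 8 of these 69 promoters (11.6%), against 1.75% of all 32851 promoters of the same length. The 8 genes were Atp5g2, Atp5k, Cox6a1, Ndufa8, Ndufaf4, Ndufaf5, Uqcr11 and Uqcrc1. ACCGGAAG, letters bound by ETS factors such as GABPA, occurred in 7 (10.1%, against 2.3% of all), namely Atp5e, Atp5md, Ndufaf1, Ndufs3, Ndufs8, Sdhb and Sdhd. TCAAGGTCA, letters bound by estrogen-related receptors, occurred in 2 (2.9%, against 0.423%), Atp5g3 and Sdhd. CAGCTG and TATAAA were searched after the values were seen. CAGCTG occurred in 5 member promoters (7.25%, against 16.3%) and TATAAA in 8 (11.6%, against 13.6%). Both were found in Cox8b. All motifs were searched on both strands, and none of them contains another. A match is a stretch of letters and does not show that a factor binds.

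Most members lay well above noise and varied little. 66 of the 68 were above noise on all 8 arrays, the exceptions being Ndufb11, a complex I subunit, on 6 arrays and Atp5md, a small subunit of ATP synthase, on 5. The median range over the 8 arrays was 0.43 log2 units for the members and 0.49 for all genes and probes tested. The 2 sets were not matched for intensity. The median log2 intensity of an array lay between 10.65 and 10.94 for the members and between 8.05 and 8.07 for all. Only 3 of the 68 members spread over more than 1 log2 unit, while 8.32% of all genes and probes did. These 3 were Cox8b (a range of 2.10), Cox7a1 (1.67) and Cox6a2 (1.59), the muscle isoforms of complex IV. The next were Atp5a1, the alpha subunit of ATP synthase, at 0.92 and Ndufb4, a complex I subunit, at 0.87. The smallest ranges among members above noise on all arrays were those of Cox6b1 (0.15), Ndufb8 (0.17), Atp5mpl (0.18), Ndufaf4 (0.20) and Ndufa1 (0.20).

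The 11 genes that were not detected included several that the chain cannot do without. They were Ndufs1, Ndufab1 and Ndufb2 of complex I, Sdha, the flavoprotein of complex II, Uqcrfs1, the Rieske protein, and Uqcrq of complex III. Cox7b, Cox7b2 and Cox8c of complex IV, Atp5pb of complex V and the assembly factor Ndufaf6 completed them. Cox7b and Atp5pb were closest to the limit, which is 6.335 on the log2 scale used here, each above it on 1 array. Cox7b had 6.13 and 6.50 on the IRAK4 KI acLDL arrays, 6.21 and 5.91 on the IRAK4 KI untreated, 5.91 and 5.96 on the wild type acLDL and 6.25 and 6.05 on the wild type untreated arrays. Just inside, Ndufb11 had 6.53 and 6.36 on the IRAK4 KI acLDL arrays, 6.37 and 6.69 on the IRAK4 KI untreated, 6.31 and 6.36 on the wild type acLDL and 6.87 and 6.26 on the wild type untreated arrays. A value below the limit bounds the signal of that probe and does not show that the RNA is absent or low. Ndufc1 and Sdhc each had 1 probe above noise on 0 arrays and another above noise on all 8. Whether the probes of the undetected genes work was not tested.

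No member passed the test in any of 6 comparisons, made with limma at an adjusted p of 0.05. The smallest adjusted p of any member was 0.0511, for Ndufa3 in IRAK4 KI against wild type over both treatments. For acLDL against untreated, 0 of 68 members passed in IRAK4 KI arrays (0.0196% of all genes and probes tested did) and 0 of 68 in wild type arrays (0.177%). For IRAK4 KI against wild type, 0 members passed with acLDL (0.216% of all), 0 untreated (0.00982%) and 0 over both treatments (3.39%). For the difference of the acLDL effects between genotypes, 0 passed (0.0491% of all). At an unadjusted p under 0.05 the members' shares lay near or below those of all genes and probes. They were 4 members (5.88%, against 6.46% of all) for acLDL in IRAK4 KI and 5 (7.35%, against 12%) for acLDL in wild type. Between genotypes they were 13 (19.1%, against 21.8%) with acLDL, 5 (7.35%, against 15%) untreated and 17 (25%, against 26.6%) over both treatments. For the difference of effects they were 4 (5.88%, against 8.59%). The median standard error of a member's log2 change between 2 groups was 0.12.

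**Figure D1:**
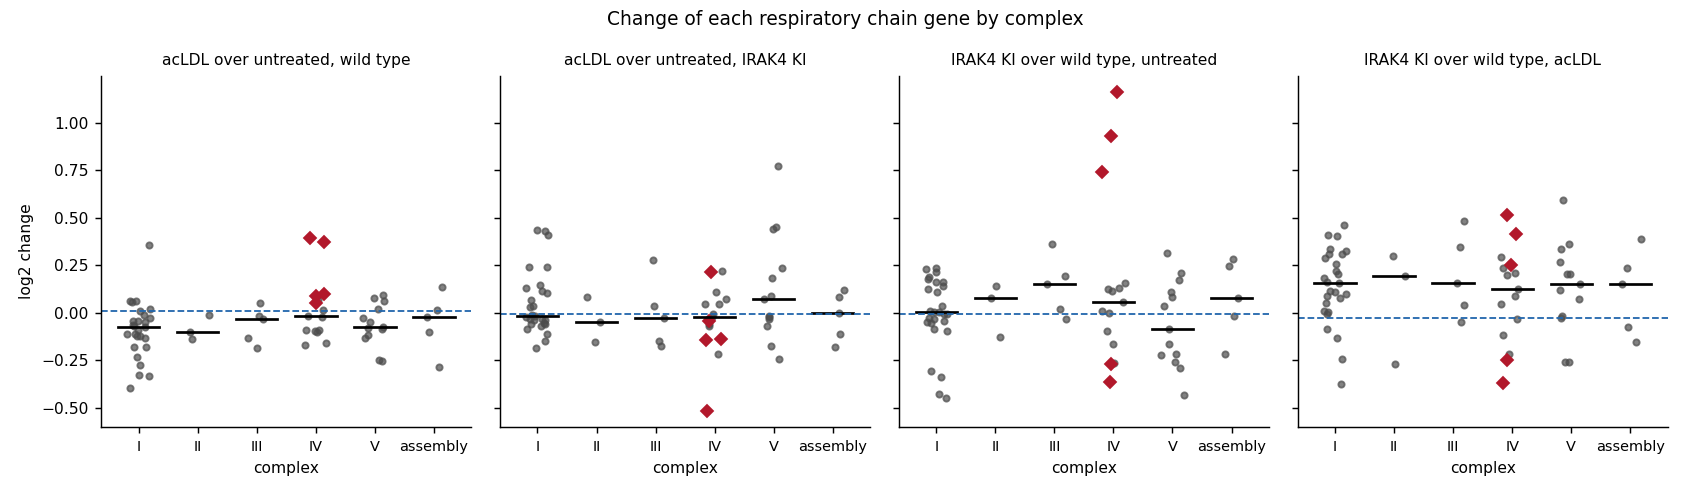
Log2 change (y axis) of each detected respiratory chain gene in 4 comparisons, by complex (x axis). Grey points are genes, red diamonds the 5 tissue-restricted complex IV isoforms, black bars the median of each complex and the dashed line the median of all genes and probes tested. With acLDL, IRAK4 KI over wild type medians lie above the dashed line in all 5 complexes, at 0.16, 0.19, 0.16, 0.13 and 0.15, and the widest spread is that of the isoforms in IRAK4 KI over wild type, untreated.

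With acLDL, IRAK4 KI arrays lay above wild type arrays for 50 members and below for 18. The median difference was 0.15 log2 units, beside -0.03 for all genes and probes. The arrays of the 2 groups did not overlap for 33 higher members, or 48.5%, and for 11 lower ones, or 16.2%. Among all genes and probes 24.1% were higher and 30.9% lower without overlap. The difference was spread over the complexes. It was higher for 22 of 27 members of complex I (median 0.16), 2 of 3 of complex II (0.19), 4 of 5 of complex III (0.16), 10 of 15 of complex IV (0.13) and 9 of 13 of complex V (0.15). One array carried much of it. Without replicate 1 of wild type acLDL the median was 0.055 with 40 members higher and 28 lower, and without replicate 2 it was 0.208 with 53 higher and 15 lower.

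That array was the lowest of the 8 for the members as a set. The median deviation of the 68 members from their own means was -0.16 log2 units on replicate 1 of wild type acLDL, and between -0.02 and 0.11 on the other 7 arrays. Over all genes and probes the same median lay between -0.02 and 0.02 on every array. By complex, the median on replicate 1 of wild type acLDL was -0.11 in complex I, -0.25 in II, -0.21 in III, -0.11 in IV without the tissue-restricted isoforms and -0.16 in V. Summed markers of heart muscle (3618), fast skeletal muscle (300), brown fat (95) and smooth muscle and pericytes (5951) were also lowest on this array. Those of fat cells, macrophages and lung epithelium were not. The part of these tissues in the result was not tested. Within the wild type acLDL pair, summed heart marker intensity was 19706 against 3618. The array with more of it was the higher for 49 of 68 members (72.1%, against 48.4% of all genes and probes). Within IRAK4 KI acLDL (17315 against 10652) such an array was the higher for 20 members (29.4%, against 49.5% of all). The count was 31 (45.6%, against 46.4%) within IRAK4 KI untreated (16634 against 14495). It was 37 (54.4%, against 47.6%) within wild type untreated (5918 against 4340). The heart marker contrast was largest in the wild type acLDL pair. In the pair with the next largest contrast, IRAK4 KI acLDL, most members went the other way.

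**Figure D2:**
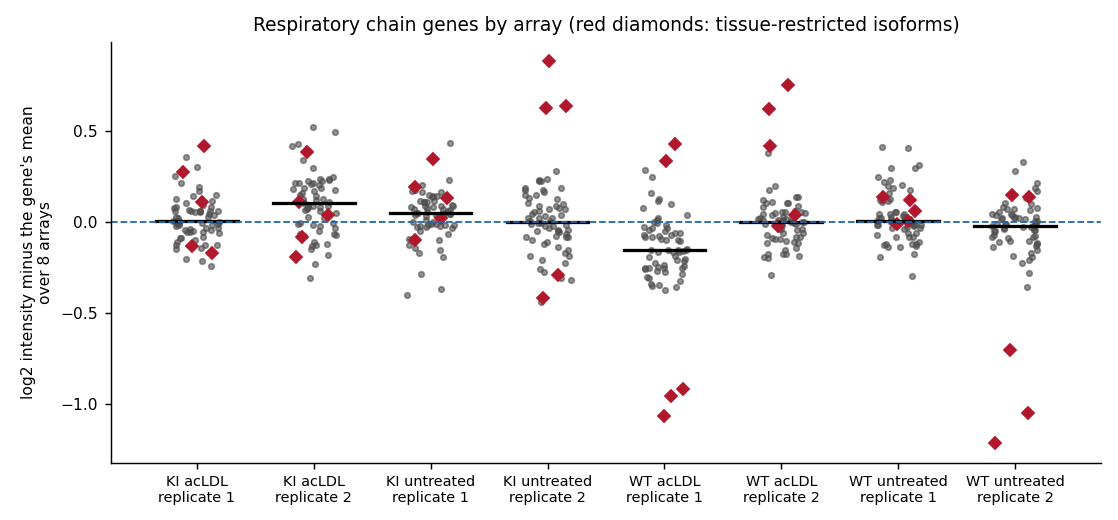
Log2 intensity of each detected respiratory chain gene minus its own mean over 8 arrays (y axis), by array (x axis). Points are genes, red diamonds tissue-restricted isoforms and black bars medians over the 68 genes. The bar of wild type acLDL replicate 1 is lowest, at -0.16, and that of IRAK4 KI acLDL replicate 2 highest, at 0.11.

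In wild type arrays, acLDL stood below untreated for 48 members and above for 20. The median change was -0.07, beside 0.01 for all genes and probes. The groups did not overlap for 3 higher and 17 lower members (4.41% and 25%), against 21.9% and 19.9% of all genes and probes. This comparison shares the wild type acLDL arrays with the one above. Its median was -0.001, with 34 members higher and 34 lower, without replicate 1 of wild type acLDL, and -0.13 without replicate 2. In IRAK4 KI arrays, acLDL stood above untreated for 30 members and below for 38, with a median of -0.02 against -0.01 for all. There, 15 members were higher and 15 lower without overlap (22.1% each, against 18.3% and 20.7% of all). That median was above 0, at most 0.039, when replicate 1 of either IRAK4 KI group was left out. In untreated arrays IRAK4 KI stood above wild type for 38 members and below for 30, with a median of 0.02 against -0.01 for all. Here 23 members were higher and 17 lower without overlap (33.8% and 25%, against 23.7% and 25.7% of all).

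In complex I, which takes electrons from NADH, the smallest p was that of Ndufa3, an accessory subunit in the membrane arm. Its log2 intensity was 11.55 and 11.53 on the IRAK4 KI acLDL arrays and 11.67 and 11.49 on the IRAK4 KI untreated arrays, against 12.05 and 11.78 on the wild type acLDL and 11.96 and 12.09 on the wild type untreated arrays. All 4 IRAK4 KI arrays lay below all 4 wild type arrays. Over both treatments the difference was -0.41 ± 0.09 (SE), just short of the threshold with limma's adjusted p of 0.0511. It was -0.38 with acLDL (adjusted p 0.157) and -0.45 untreated (adjusted p 0.212). Taken over both treatments, 8 members were higher and 5 lower in IRAK4 KI with no overlap of 4 against 4 arrays (11.8% and 7.35%, against 6.07% and 8.71% of all genes and probes).

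The detected core subunits of complex I, Ndufv1, Ndufs8, Ndufs3 and Ndufs7, ran the other way by smaller amounts. Ndufv1, which binds NADH, had 11.38 and 11.52 on IRAK4 KI acLDL and 11.48 and 11.48 on IRAK4 KI untreated arrays, against 10.99 and 11.29 on wild type acLDL and 11.34 and 11.19 on wild type untreated arrays. The 4 IRAK4 KI arrays lay above the 4 wild type ones, by 0.26 ± 0.09 (SE), with an adjusted p of 0.127. Ndufs8, an iron-sulphur subunit, differed by 0.25 (adjusted p 0.124), Ndufs3 by 0.20 (0.194) and Ndufs7 by 0.13 (0.268). Ndufc1, an accessory subunit, differed by 0.46 with acLDL, where IRAK4 KI arrays had 11.37 and 11.72 and wild type arrays 10.97 and 11.20 (adjusted p 0.144). None of these passed the test. Among the assembly factors, Ndufaf1, which acts on the membrane arm, differed by 0.33 over both treatments (adjusted p 0.105), and the other 4 by between -0.08 and 0.24.

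Ndufb9 and Ndufb5, further accessory subunits of complex I, lay on opposite sides of their untreated arrays with acLDL in the 2 genotypes. Ndufb9 had 8.47 and 8.42 on IRAK4 KI acLDL arrays, above 8.08 and 7.95 on IRAK4 KI untreated arrays. In wild type it had 8.17 and 8.05 with acLDL, below 8.55 and 8.33 untreated. The acLDL effect was 0.43 in IRAK4 KI (adjusted p 0.651) and -0.33 in wild type (adjusted p 0.344), and their difference was 0.76 ± 0.17 (SE), with an adjusted p of 0.377. Ndufb5 had 8.53 and 8.68 on IRAK4 KI acLDL against 8.23 and 8.16 on IRAK4 KI untreated arrays, and 8.31 and 8.09 on wild type acLDL against 8.68 and 8.39 on wild type untreated arrays. Its difference of effects was 0.74 ± 0.20 (SE), with an adjusted p of 0.452. Neither difference passed the test over all genes. Together with Atp5k, described under complex V, they were 3 of 68 members (4.41%) whose acLDL arrays lay on opposite sides of the untreated arrays in the genotypes, against 7.74% of all genes and probes. Over all members the median difference of effects was 0.08, beside -0.02 for all genes and probes, with 43 members higher in IRAK4 KI and 25 lower. It was 0.007 without replicate 1 of wild type acLDL and 0.161 without replicate 2. In wild type alone, Ndufa6 had a change of -0.40 with acLDL (adjusted p 0.368), Ndufb10 of 0.35 (0.351) and the assembly factor Ndufaf3 of -0.28 (0.380).

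**Figure D3:**
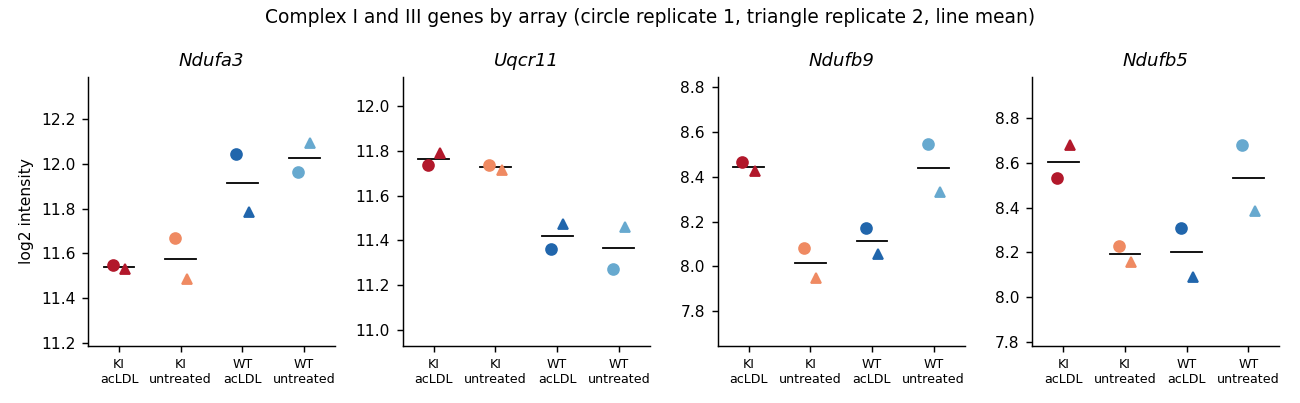
Log2 intensity (y axis) of Ndufa3, Uqcr11, Ndufb9 and Ndufb5 on each array, by group (x axis), each panel spanning 1.2 log2 units. Circles are replicate 1, triangles replicate 2 and lines group means. Ndufa3 is lower and Uqcr11 higher on all 4 IRAK4 KI arrays than on the 4 wild type arrays, and Ndufb9 and Ndufb5 are higher with acLDL in IRAK4 KI and lower with acLDL in wild type.

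Complex II, which oxidises succinate and also serves the tricarboxylic acid cycle, was measured by 3 subunits. Sdhc, a membrane anchor, had 11.00 and 11.05 on IRAK4 KI acLDL and 11.14 and 11.22 on IRAK4 KI untreated arrays, against 11.33 and 11.27 on wild type acLDL and 11.23 and 11.39 on wild type untreated arrays. All IRAK4 KI arrays lay below all wild type arrays, with a log2 difference of -0.20 and an adjusted p of 0.144. Sdhb, the iron-sulphur subunit, differed by 0.17 (adjusted p 0.333) and Sdhd, the other anchor, by 0.19 (adjusted p 0.408), both with overlap. The 3 subunits of the complex thus did not share a side. With acLDL against untreated, all 3 stood lower in wild type, with changes between -0.14 and -0.01, and none passed.

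In complex III, which passes electrons from coenzyme Q to cytochrome c, Uqcr11 gave the smallest p. This gene encodes a small accessory subunit. It had 11.74 and 11.79 on IRAK4 KI acLDL and 11.74 and 11.72 on IRAK4 KI untreated arrays, against 11.36 and 11.47 on wild type acLDL and 11.27 and 11.46 on wild type untreated arrays. Every IRAK4 KI array was higher than every wild type array. The difference was 0.35 ± 0.08 (SE) over both treatments, with an adjusted p of 0.0515. It was 0.35 with acLDL (adjusted p 0.145) and 0.36 untreated (adjusted p 0.223).

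Uqcrb, a further accessory subunit of complex III, differed mainly in the acLDL groups, with 9.81 and 9.73 on IRAK4 KI arrays and 9.15 and 9.42 on wild type arrays. That was 0.48 ± 0.14 (SE), with an adjusted p of 0.131, while the untreated difference was 0.02. Whether these differences differ was tested as the difference of acLDL effects, 0.46 with an adjusted p of 0.578. The core proteins Uqcrc1 and Uqcrc2 differed by 0.12 and 0.16 over both treatments (adjusted p 0.413 and 0.278), and Uqcrh by -0.04. Cyc1, the cytochrome of the same complex, falls outside the choice by symbol. It differed by 0.30, with an adjusted p of 0.112.

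The isoforms of complex IV, the oxidase that consumes oxygen, showed the largest differences between arrays. Cox8b had 9.98 and 9.63 on IRAK4 KI acLDL and 10.06 and 10.60 on IRAK4 KI untreated arrays, against 8.65 and 10.46 on wild type acLDL and 9.83 and 8.50 on wild type untreated arrays. Cox7a1 had 9.68 and 9.37 on IRAK4 KI acLDL and 9.46 and 9.89 on IRAK4 KI untreated arrays, against 8.35 and 9.88 on wild type acLDL and 9.27 and 8.21 on wild type untreated arrays. Cox6a2 had 10.69 and 10.96 on IRAK4 KI acLDL and 10.71 and 11.21 on IRAK4 KI untreated arrays, against 9.62 and 11.00 on wild type acLDL and 10.56 and 9.88 on wild type untreated arrays. For each of the 3, replicate 1 of wild type acLDL and replicate 2 of wild type untreated were the lowest arrays, and the 2 arrays of a wild type group were between 0.69 and 1.82 log2 units apart. Over both treatments IRAK4 KI exceeded wild type by 0.71 ± 0.42 (SE) for Cox8b, 0.67 ± 0.35 for Cox7a1 and 0.63 ± 0.30 for Cox6a2, with adjusted p of 0.322, 0.262 and 0.225.

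Heart muscle markers are set beside these isoforms by array. Summed over 8 of 10 heart markers, with Sln and Ryr2 above noise on 0 arrays, intensity was 17315 and 10652 on IRAK4 KI acLDL arrays and 14495 and 16634 on IRAK4 KI untreated arrays. It was 3618 and 19706 on wild type acLDL and 5918 and 4340 on wild type untreated arrays. The summed intensity of Cox6a2, Cox7a1 and Cox8b was 3348 and 3319 on IRAK4 KI acLDL and 3309 and 4734 on IRAK4 KI untreated arrays, against 1380 and 4266 on wild type acLDL and 2909 and 1466 on wild type untreated arrays. The 2 arrays lowest in the isoforms were also the 2 lowest in heart markers. They were the 2 lowest as well in the fast skeletal muscle, fat and brown fat markers given below, so the match is not particular to heart. All 8 heart markers were higher in IRAK4 KI than in wild type over both treatments, with a median difference of 0.74, and 0 passed the test (3 had an unadjusted p under 0.05). Within wild type acLDL, the array with more heart signal exceeded the other by 1.82 for Cox8b, 1.54 for Cox7a1 and 1.38 for Cox6a2. Within IRAK4 KI acLDL the same difference was 0.35 for Cox8b, 0.31 for Cox7a1 and -0.28 for Cox6a2, with summed isoforms nearly equal. It was 0.54, 0.43 and 0.50 within IRAK4 KI untreated, and 1.34, 1.05 and 0.69 within wild type untreated, for the genes in that order. The part of muscle RNA in the genotype difference of these isoforms was not tested.

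Fast skeletal muscle markers, of which 8 of 12 were detected and Myh4 was above noise on 0 arrays, were high on 1 array of each untreated group. Their sum was 746 and 555 on IRAK4 KI acLDL and 645 and 20027 on IRAK4 KI untreated arrays, against 300 and 742 on wild type acLDL and 17109 and 386 on wild type untreated arrays. On the 2 high arrays, replicate 2 of IRAK4 KI untreated and replicate 1 of wild type untreated, each of the 3 isoforms exceeded the other array of its group. The summed isoforms were 4734 against 3309 in IRAK4 KI and 2909 against 1466 in wild type. Markers of fat cells (4 of 9 detected) summed to between 270 and 1552, and those of brown fat (3 of 6 detected) to between 95 and 1637. The brown fat sum was highest on replicate 2 of wild type acLDL, as was the heart sum. Both fat sums were lowest on the 2 arrays lowest in the isoforms. They were 320 and 95 on replicate 1 of wild type acLDL, and 270 and 158 on replicate 2 of wild type untreated. The part of the skeletal muscle and fat markers in the isoform levels was not tested.

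**Figure D4:**
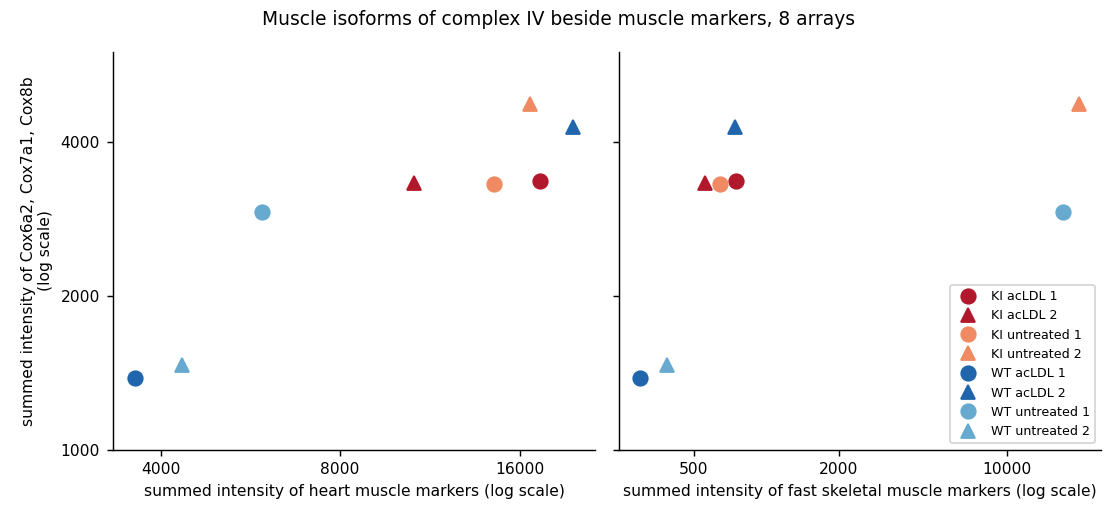
Summed intensity of Cox6a2, Cox7a1 and Cox8b (y axis, log scale) against the summed intensity of heart muscle markers (left) and fast skeletal muscle markers (right) on each array (x axes, log scale). Colours are groups, circles replicate 1 and triangles replicate 2. The arrays lowest in the isoforms, wild type acLDL replicate 1 (1380) and wild type untreated replicate 2 (1466), are lowest in both marker sums.

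The broadly expressed partners of the muscle isoforms varied less. Cox6a1 had 12.18 and 12.35 on IRAK4 KI acLDL and 12.19 and 12.20 on IRAK4 KI untreated arrays, against 11.91 and 12.03 on wild type acLDL and 12.00 and 12.13 on wild type untreated arrays. These 4 IRAK4 KI arrays lay above the 4 wild type arrays by 0.21 ± 0.08 (SE), with an adjusted p of 0.143, and a second Cox6a1 probe gave 0.23. Cox8a differed by 0.10 (adjusted p 0.498), Cox7a2 by -0.15 (0.385) and Ndufa4 by 0.07 (0.695). Cox4i1, the common form of a subunit through which ATP regulates the oxidase, had 13.75 and 13.54 on IRAK4 KI acLDL and 13.85 and 13.87 on IRAK4 KI untreated arrays, against 13.87 and 13.86 on wild type acLDL and 14.03 and 14.02 on wild type untreated arrays. Its difference over both treatments was -0.19, with an adjusted p of 0.159. Of the other subunits, Cox5a differed by 0.16, Cox5b by 0.20, Cox7c by 0.13, Cox6c by -0.03 and Cox6b1 by -0.05, and none passed.

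Cox4i2 and Cox6b2, known from lung and from testis, did not follow the muscle isoforms. Cox4i2 had 8.65 and 8.63 on IRAK4 KI acLDL and 8.84 and 8.53 on IRAK4 KI untreated arrays, against 9.16 and 8.86 on wild type acLDL and 8.96 and 8.96 on wild type untreated arrays. Each IRAK4 KI array lay below each wild type array, with a difference of -0.32 ± 0.10 (SE) and an adjusted p of 0.102. Cox6b2 differed by -0.31 (adjusted p 0.161). Lung epithelium markers, the tissue in which Cox4i2 is best known, were higher in IRAK4 KI for 4 of 8 and lower for 4, with a median difference of 0.02. Smooth muscle and pericyte markers, another setting of Cox4i2, were higher for 4 of 5 detected genes, with a median difference of 0.28.

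**Figure D5:**
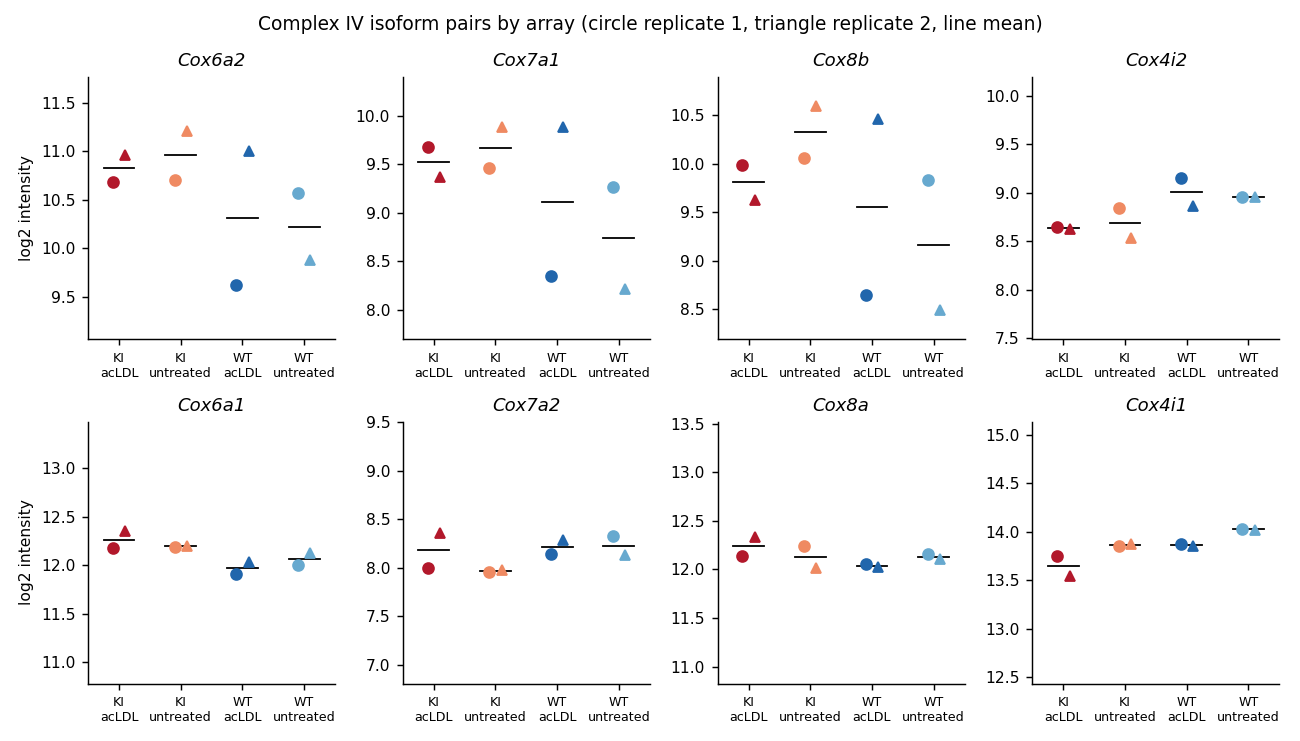
Log2 intensity (y axis) of 4 tissue-restricted complex IV isoforms (top) and their broadly expressed partners (bottom) on each array, by group (x axis), each panel spanning 2.7 log2 units. Circles are replicate 1, triangles replicate 2 and lines group means. The arrays of each wild type group are far apart for Cox6a2, Cox7a1 and Cox8b and close together for Cox6a1, Cox7a2, Cox8a and Cox4i1.

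Complex V makes ATP from the proton gradient. Atp5b, the catalytic beta subunit, had 13.59 and 13.83 on IRAK4 KI acLDL and 13.63 and 13.83 on IRAK4 KI untreated arrays, against 13.32 and 13.70 on wild type acLDL and 13.41 and 13.42 on wild type untreated arrays. The groups overlapped through replicate 2 of wild type acLDL, and the difference over both treatments was 0.26 (adjusted p 0.179). Atp5a1, the alpha subunit, differed by 0.07 (adjusted p 0.798) and Atp5c1, the gamma subunit of the rotor, by 0.16 (adjusted p 0.211). The genes Atp5g1, Atp5g2 and Atp5g3 encode the same mature subunit of the membrane ring, yet they lay on different sides. Atp5g1 differed by 0.26 (adjusted p 0.185), Atp5g2 by -0.26 (0.141) and Atp5g3 by -0.21 (0.141). Atp5g1 had log2 intensities of 11.61 and 11.55 on IRAK4 KI acLDL arrays, against 11.02 and 11.47 on wild type acLDL arrays. Atp5g2 had 10.62 and 10.59 with acLDL in IRAK4 KI, against 11.02 and 10.71 in wild type. Atp5g3 had 13.40 and 13.37 with acLDL in IRAK4 KI, against 13.59 and 13.71 in wild type. None of the 3 differences passed the test, and a difference between the 3 genes was not tested.

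Atp5md, a subunit that helps ATP synthase to pair up, lay close to the noise limit. It had 6.92 and 7.06 on IRAK4 KI acLDL arrays, against 6.20 and 6.25 on IRAK4 KI untreated arrays, both under the noise limit. Wild type arrays had 6.26 and 6.55 with acLDL, against 6.82 and 6.49 untreated. IRAK4 KI acLDL was therefore at least 1.58-fold higher than IRAK4 KI untreated (adjusted p 0.399), and IRAK4 KI untreated was at least 1.25-fold lower than wild type untreated (adjusted p 0.254). Such a bound sets the bright mean against the lowest value above noise. The difference of acLDL effects had an adjusted p of 0.310, and its size is not given because it rests on values under the limit. Atp5k, the e subunit beside it, had 6.76 and 6.85 on IRAK4 KI acLDL against 6.65 and 6.48 on IRAK4 KI untreated arrays, and 6.59 and 6.48 on wild type acLDL against 6.88 and 6.70 on wild type untreated arrays. Atp5k also lay close to the noise limit. Its difference of effects was 0.49 ± 0.17 (SE), with an adjusted p of 0.555. Atp5e, the epsilon subunit, had an acLDL effect of 0.44 in IRAK4 KI (adjusted p 0.765) and 0.08 in wild type (adjusted p 0.884).

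For 7 genes several probes were above noise, and the changes of these probes were compared. Cox6a1 and Ndufs3 gave the same sign with both probes in all 6 comparisons. The probes of Ndufa5, Ndufaf5, Ndufs4, Cox6b1 and Ndufv3 differed in sign in at least 1 comparison. Ndufs4, an accessory subunit that stabilises complex I, had 3 probes, with changes of 0.13, -0.26 and -0.14 in IRAK4 KI against wild type untreated. Probes agreed in sign for 5 of the 7 genes in each genotype comparison, for 4 in IRAK4 KI and 6 in wild type with acLDL, and for 6 in the difference of effects. Probes under the noise limit were left out. Ndufc1, Sdhb, Sdhc, Cox6b2, Atp5j, Atp5md and Ndufaf7 each had a detected probe and another above noise on 0 arrays.

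Genes that work beside the chain were described from lists of the same pathway. Over both treatments, IRAK4 KI exceeded wild type for 6 of 6 detected electron carriers and complex III genes outside the choice by symbol (median 0.23), 5 of 6 coenzyme Q genes (0.19) and 9 of 14 tricarboxylic acid cycle genes (0.17). It did so for 8 of 12 factors that assemble cytochrome oxidase (0.06), 38 of 67 mitochondrial ribosome genes (0.04), 6 of 9 defence and uncoupling genes (0.01) and 7 of 12 glycolysis genes (0.06). For 12 regulators of mitochondrial biogenesis, 5 were higher and 7 lower (-0.04). The median of all genes and probes was -0.02, and the members' own median was 0.08. In these 8 lists 3 of 138 tested genes (2.17%) passed the test in this comparison, against 3.39% of all genes and probes, so the lists held no larger share than the background. The 3 genes, 1 higher and 2 lower, are given below as single genes, and none passed in the other 5 comparisons.

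Nrf1, the transcription factor named for its binding to respiratory genes, fell in IRAK4 KI. It had 9.0 and 8.98 on IRAK4 KI acLDL and 9.14 and 9.26 on IRAK4 KI untreated arrays, against 9.75 and 9.51 on wild type acLDL and 9.50 and 9.54 on wild type untreated arrays. All IRAK4 KI arrays lay below all wild type arrays, with a difference of -0.48 ± 0.08 (SE) and limma's adjusted p of 0.0443. Its adjusted p lay between 0.0289 and 0.239 over the alternatives, and the call was kept in 9 of 19. Of the 8 members with its letters in their promoter, none passed, and their differences over both treatments were 0.35 for Uqcr11, 0.21 for Cox6a1, 0.12 for Uqcrc1, 0.09 for Ndufa8, 0.03 for Atp5k, 0.00 for Ndufaf5, -0.08 for Ndufaf4 and -0.26 for Atp5g2.

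Coq2, an enzyme that attaches the side chain in coenzyme Q synthesis, passed the test as higher in IRAK4 KI over both treatments, with an adjusted p of 0.0457. It had 6.92 and 6.87 on IRAK4 KI acLDL and 6.82 and 6.73 on IRAK4 KI untreated arrays, against 5.82 and 5.87 on wild type acLDL and 6.82 and 6.24 on wild type untreated arrays. Both wild type acLDL arrays and 1 wild type untreated array were under the noise limit, so the size of the difference is not measured, and the genotypes overlapped in the untreated groups. The fitted log2 change ran from 0.46 to 1.49 over the alternatives. With acLDL, Coq2 was at least 1.47-fold higher in IRAK4 KI, with an adjusted p of 0.0638. Mrpl55, of the large subunit of the mitochondrial ribosome, fell by 0.38 on the log2 scale with an adjusted p of 0.0446. It had 7.50 and 7.54 on IRAK4 KI acLDL and 7.82 and 7.85 on IRAK4 KI untreated arrays, against 8.07 and 7.99 on wild type acLDL and 8.03 and 8.13 on wild type untreated arrays. The Coq2 call was kept in 7 of 18 alternatives and the Mrpl55 call in 9 of 19, with adjusted p between 0.0347 and 0.219 for Coq2 and between 0.0297 and 0.239 for Mrpl55. Of the other lists, the smallest p belonged to Suclg1 (0.65) and Dld (0.35) of the tricarboxylic acid cycle, Cox19 (0.36) and Coa6 (0.24) among the oxidase assembly factors, Cyc1 (0.30) and Etfdh (0.34) among the carriers, Slc25a5 (0.29) and Prdx3 (0.33) in defence and uncoupling, and Aldoc (-0.37) and Hk2 (-0.27) in glycolysis. These 10 had adjusted p between 0.0527 and 0.193.

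The mitochondrial ribosome translates the subunits encoded in mitochondrial DNA, and 67 of its genes were tested. With acLDL, IRAK4 KI exceeded wild type for 46 of them and was lower for 21 (median 0.07), beside 50 chain members higher and 18 lower (0.15). Untreated, 31 were higher and 36 lower (-0.01), beside 38 chain members higher and 30 lower (0.02). For acLDL against untreated in IRAK4 KI, 42 were higher and 25 lower (0.02), beside 30 chain members higher and 38 lower (-0.02). In wild type, 18 were higher and 49 lower (-0.09), beside 20 chain members higher and 48 lower (-0.07). These comparisons share arrays, and no test of the ribosome genes against the chain members was made.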

How the data were processed

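Per the submitters' processing notes, the authors made the deposited intensity values with BeadStudio (version: not given in the sources used here). Between 29.07 and 29.3% of an array's values lie below 0 and sorted columns differ by at most 1.4 units, so background subtraction and quantile normalization were inferred from the values. A second table has 16 columns whose names match no sample label, and they were not used. Values were corrected with normexp in limma (version 3.58.1, R 4.3.3, offset 16) and put on the log2 scale, on which all folds are given and which compresses the folds of dim probes. Noise, 12.2 intensity units, was estimated as the root mean square of all values below 0. Gene names come from a platform annotation joined by probe identifier, of another chip than the labels' mouseRef-8 v2, with 20984 probes of 1 symbol, 1 of several and 3628 of none. Where a gene had several detected probes, the brightest over all arrays was used. The levels of different probes are not compared with each other.

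All 8 arrays entered 1 limma fit of 4 group means (4 residual degrees of freedom), with eBayes and Benjamini-Hochberg adjustment over 10187 genes and unnamed probes in each comparison, and the threshold 0.05. The comparisons share arrays. The procedure was run on simulated data with noise drawn independently for each gene. That run could not test shifts shared by many genes, such as those of the muscle markers. The members, gene lists and marker lists were chosen with earlier results of these data known. Genes named are those past the threshold, the 2 with the smallest p in each complex and comparison, core subunits, isoforms, the 5 largest and 5 smallest ranges, and genes whose probes differ in sign, and of each pathway list the genes past the threshold or the 2 with the smallest p. Alternatives were other background corrections, normalizations and filters, a variance trend, each probe by itself, a fit of only the compared groups, the replicate number as a block, each array left out, and, added after seeing the data, both arrays of high skeletal muscle markers left out and a crossed pairing. Figures were drawn with matplotlib (3.10.9).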

Additional observations from a re-analysis of the deposited data

Results flagged for a closer look

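For 3 of the 68 genes (4.41%), both acLDL arrays lay above both untreated arrays in IRAK4 KI and below both in wild type, and 788 of all genes and probes tested (7.74%) lay on opposite sides in the genotypes in this way. Ndufb9 had an acLDL effect of 0.43 in IRAK4 KI and -0.33 in wild type, a difference of 0.76. Ndufb5 had 0.41 in IRAK4 KI and -0.33 in wild type, a difference of 0.74. Atp5k had 0.24 in IRAK4 KI and -0.25 in wild type, a difference of 0.49. The difference itself was tested in limma for each, and none passed, with adjusted p of 0.377, 0.452 and 0.555. No cause was tested.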

How the results depend on the processing

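With 2 arrays a group, precision is limited by the number of arrays and, for dim genes such as Atp5md and Coq2, by signal over background. No respiratory chain gene passed under any alternative in 5 comparisons. In IRAK4 KI against wild type over both treatments, 0 passed in the analysis as reported and in 14 of 19 alternatives. It was 2 with an offset of 50 and 2 with a filter on all 8 arrays, both times Ndufa3 and Uqcr11, 1 (Ndufa3) with every probe on its own, and 2 with a variance trend, again Ndufa3 and Uqcr11. With the variance trend, 705 of 10187 genes and probes passed, against 345 in the analysis as reported. The 2 of 68 members were thus no larger a share than that of all genes and probes under this alternative. The remaining alternative left out replicate 2 of wild type acLDL, so that 1 array stayed in that group. The change was then 0.97 for Cox6a2 and -0.48 for Ndufa3. The array left out had the highest heart (19706) and brown fat (1637) marker sums of the 8. Over the alternatives, adjusted p ranged from 0.0342 to 0.252 for Ndufa3 and from 0.0327 to 0.261 for Uqcr11. The cause was not tested.

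The members' median was -0.001 to -0.13 for acLDL in wild type, and for acLDL in IRAK4 KI it lay between -0.025 and 0.039, with its sign kept in 18 of 20 alternatives. It was above 0 in all alternatives for the genotype comparisons, from 0.055 to 0.208 with acLDL, from 0.009 to 0.073 untreated and from 0.054 to 0.125 over both, and from 0.007 to 0.161 for the difference of effects. Counts over all genes and probes ranged from 0 to 6 against 2 reported for acLDL in IRAK4 KI, from 2 to 32 against 18 in wild type, from 4 to 61 against 22 between genotypes with acLDL, from 0 to 53 against 1 untreated, from 0 (without replicate 1 of IRAK4 KI untreated) to 705 (variance trend) against 345 over both, and from 0 to 6 against 5 for the difference. Of 1001 values of 51 gene results, 962 kept their direction and side of the threshold, 8 came to pass it, 31 no longer passed and 0 reversed. The 31 were all values of Nrf1, Coq2 and Mrpl55, the only ones of the 51 that passed in the analysis as reported. The 962 thus come mostly from results that did not pass.

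The replicate number as a block gave 0 members in every comparison. Correlations of same-numbered arrays' deviations ran from -0.313 to 0.288. Because each group holds so few arrays, these correlations cannot tell whether the numbers pair the arrays. A crossed pairing, added after seeing the data, gave 0 members, with 32 calls over all genes for acLDL in wild type and 53 for IRAK4 KI against wild type untreated.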
